A study of Mus musculus with 2 samples.

Results

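A set of 6 genes coding for digestive zymogens and other secreted or secretory-pathway proteins of the gastric gland was followed in the stomachs of 2 mice. They are Pga5, Pgc, Cblif (listed under its older symbol Gif), Chia1, Dmbt1 and Ctse, and were picked by symbol from the list of probe sets. No cut-off on measured values was used, but earlier results of these data were known when the genes were chosen. Of the 7 names looked up, 1 (Chia) had no row because the acidic chitinase is listed as Chia1, so 6 genes of 30894 with a named probe set were found, each on 1 probe set. All 6 lay above the expression floor described below, which 17363 genes passed. The first mouse had the genotype Atp4bCre; MIST1-LSL, whose second allele makes MIST1 once Cre has cut out a stop cassette. The control mouse carried Atp4bCre alone. Atp4bCre makes Cre recombinase from the promoter of a proton pump subunit of parietal cells, the acid-secreting cells, so both mice carried the Cre and the chief cells themselves were not its target. Both were 12 weeks old and of a mixed background backcrossed to C57/B6. One stomach per genotype was hybridised to an Affymetrix array, so no difference below has a replicate check, no test between genotypes was possible, and no p-value is given. The sample labels speak of corpus, the acid-secreting region, whereas the design text says that whole stomachs were taken.

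Gastric chief cells lie at the base of corpus glands and store digestive proenzymes in large granules that are released into the gland lumen. Pepsinogens are inactive precursors that cut themselves into the protease pepsin at acid pH. In mice, chief cells also secrete gastric intrinsic factor, which carries vitamin B12 to the ileum, and acidic chitinase, which digests the chitin of insect and fungal food. MIST1, encoded by Bhlha15, is a basic helix-loop-helix transcription factor of chief cells and other secretory cells that builds the granule compartment, and it binds DNA motifs called E-boxes. The question addressed here is whether genes for chief cell products differed in level in a stomach in which MIST1 was to be switched on in parietal cells.

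Bhlha15 itself, the gene meant to be switched on, read 5.30 on the log2 scale in MIST1-LSL and 5.26 in control, a log2 difference (MIST1-LSL minus control) of 0.04, so no higher level was seen on its 19 probes. Which part of the transcript its probes cover is not given. The library labelled MIST1-LSL is therefore known as such from its label alone. The 2 arrays had medians of 4.60 for MIST1-LSL and 4.64 for control over 41345 probe sets. Of 10 housekeeping genes measured, none was 2-fold apart, with a median of -0.08.

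None of the 6 genes was 2-fold higher or lower in the MIST1-LSL stomach. Levels are log2 values from RMA, the method that corrects background, equalises the arrays and combines the probes of a probe set, and each difference is MIST1-LSL minus control. The 5 genes Pga5, Pgc, Cblif, Chia1 and Ctse read lower in MIST1-LSL, and 1 gene, Dmbt1, read higher. Of all 17363 genes above the floor, 9390 read lower and 7973 higher, which is the background for every count below or above 0. The median difference over the 6 was -0.16, beside -0.03 over all 17363 genes above the floor. The floor was 4.62, the median of all probe-set values on both arrays, and a gene passed it by the higher of its 2 levels. A gene that passed on only 1 array therefore had its direction set by that array. Of all genes above the floor, 1.43% were at least 2-fold apart in either direction, 0.968% higher and 0.467% lower. A count of 0 among 6 genes is therefore near that background. As a yardstick for probe behaviour, these differences, not the levels, varied among probe sets of the same gene with an SD of 0.205. It was pooled over 501 genes that had several probe sets above the floor, and does not cover variation between mice. Of the 6 differences, 3 were within this SD, and only that of Pga5 exceeded 2 such SDs.

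**Figure D1:**
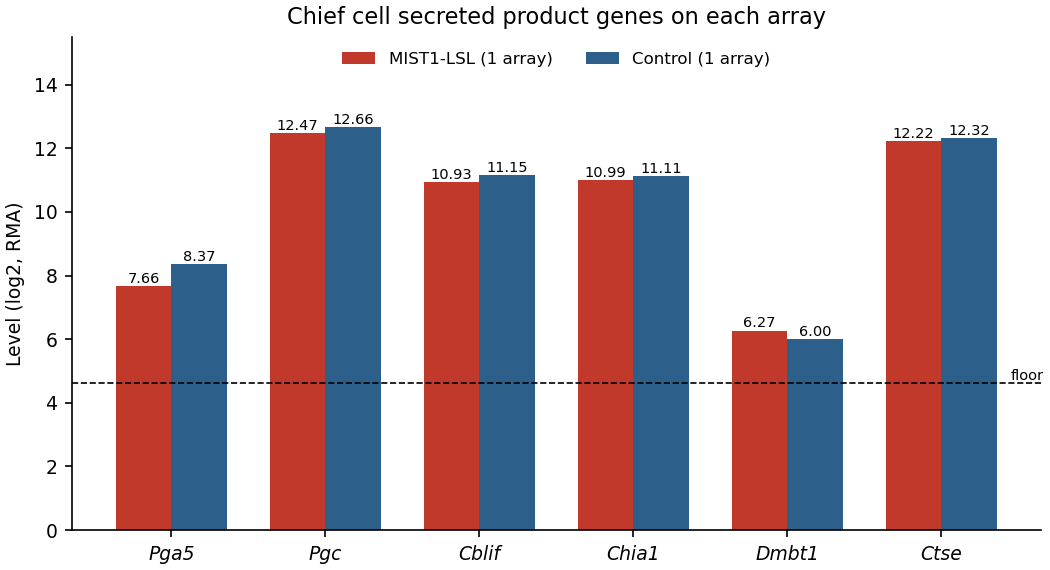
Bars show the level (log2, RMA) of each of the 6 genes on the MIST1-LSL array (red) and the control array (blue), 1 array each, with the expression floor of 4.62 as a dashed line. The pairs differ little in height, and Pga5 shows the widest gap, at 7.66 in MIST1-LSL and 8.37 in control.

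The pepsinogen gene Pga5 differed most. Pga5, pepsinogen 5 of group I and a zymogen of corpus chief cells, read 7.66 in MIST1-LSL and 8.37 in control on probe set 17362741 of 24 probes. Its log2 difference was -0.71, so its level in MIST1-LSL was 38.7% below control. In the authors' deposited table the linear intensities of Pga5 were 202.1 in MIST1-LSL and 329.9 in control, a ratio of 0.613. Only 312 genes above the floor, 1.80%, lay further below control than Pga5. It was also the only one of the 6 outside the middle 95% of genes, which ran from -0.63 to 0.68. Of the 6 genes, 1 was at least 1.5-fold lower, and this was Pga5. Of all genes above the floor, 3.35% were at least 1.5-fold lower.

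The other pepsinogen gene differed much less. Pgc codes for progastricsin, also called pepsinogen C, the group II zymogen, which glands outside the corpus make as well. It read 12.47 in MIST1-LSL and 12.66 in control on probe set 17338316 of 27 probes. The difference of -0.19 put MIST1-LSL 12.6% below control, which is less than 1 SD between probe sets of a gene. In all, 27.1% of genes lay further below control. The difference of Pga5 was 0.51 log2 units below that of Pgc (-0.51), so the ratio of Pga5 to Pgc signal in MIST1-LSL was 0.701 of that in control. Pgc was close to the top of the scale, 0.90 below the highest probe set in MIST1-LSL and 0.71 below it in control, whereas Pga5 was 5.71 below it in MIST1-LSL and 5.01 below it in control. Whether the upper end of the scale narrowed the difference of Pgc was not tested.

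Cblif, gastric intrinsic factor, differed by about as much as Pgc. It read 10.93 in MIST1-LSL and 11.15 in control on probe set 17357729 of 26 probes, a difference of -0.22, or 14.1% below control. In the authors' deposited table its intensities were 1947 in MIST1-LSL and 2270.0 in control. The difference of Cblif is 1.07 times the SD between probe sets of a gene, and 24.3% of genes lay further below control. Chief cells are the source of intrinsic factor in mice, whereas human stomachs make it in parietal cells.

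Chia1, acidic mammalian chitinase, differed by -0.12, with 10.99 in MIST1-LSL and 11.11 in control on probe set 17401465 of 17 probes. Its level in MIST1-LSL was 8.14% below control. The authors' deposited table gave intensities of 2038 in MIST1-LSL and 2214 in control for Chia1. The log2 difference is 0.598 of the SD between probe sets of a gene and lies inside the middle 50% of genes, which ran from -0.21 to 0.17. Cblif lay just outside this range and Pgc just inside it.

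Ctse and Dmbt1 are not zymogens. Ctse, cathepsin E, is an aspartic protease related to the pepsinogens that stays in the endosomal system of gastric epithelial cells. It read 12.22 in MIST1-LSL and 12.32 in control on probe set 17217035 of 25 probes, a difference of -0.10, the smallest of the 6 in size. Its intensities in the authors' deposited table were 4755 in MIST1-LSL and 5106 in control. Ctse too was near the top of the scale, 1.15 below the highest probe set in MIST1-LSL and 1.06 below it in control. Dmbt1, a secreted glycoprotein of mucosal surfaces that binds bacteria through scavenger receptor cysteine-rich domains, read 6.27 in MIST1-LSL and 6.00 in control on probe set 17483925 of 13 probes. The difference of 0.27 is a 1.20-fold higher level in MIST1-LSL, and 15.8% of genes lay further above control. Dmbt1 was 1.65 above the floor in MIST1-LSL and 1.38 above it in control.

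**Figure D2:**
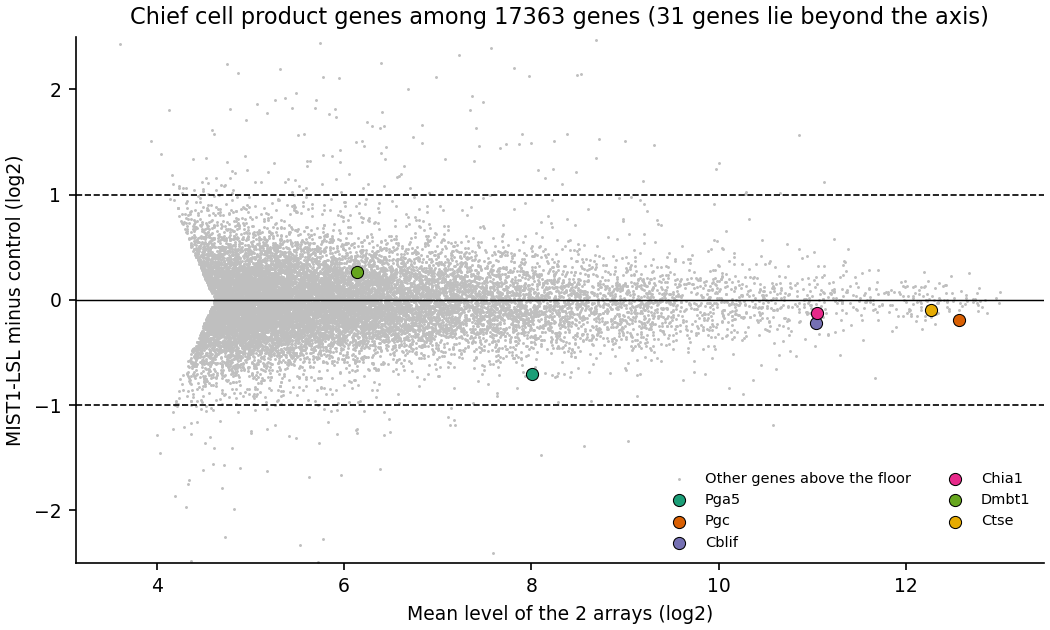
Each grey point is 1 of 17363 genes above the floor, with its mean level over the 2 arrays on the x axis (log2) and MIST1-LSL minus control on the y axis (log2). Dashed lines mark 2-fold differences, and 31 genes lie beyond the y axis. The 6 coloured genes all lie between the dashed lines, with Pga5 lowest at -0.71 and Dmbt1 highest at 0.27.

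Pgc, Cblif, Chia1 and Ctse belonged to the 580 genes whose higher level was at least 10, and such genes scattered less around 0 on the lower side. In these 580 genes the middle 95% of differences ran from -0.50 to 1.19 with a median of -0.01. Only 0.172% of them were at least 2-fold lower and 3.28% at least 2-fold higher. All 4 read lower in MIST1-LSL, by values between -0.22 and -0.10, and so lay inside that range.

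Promoter sequences are shown for the chief cell genes that had an entry in the promoter table taken from RefSeq (build GRCm38.p6), because the factor placed under Cre control is one that binds E-boxes. Pgc, Cblif and Chia1 of the 6 genes had an entry, and the 250 bases before the transcription start are printed 5′ to 3′. Capitals mark every match to the general E-box CANNTG and to TATAAA, the core of the TATA box, on either strand. In Chia1 no marked motif overlaps another.
Pgc, chr17:47726592-47726841, plus strand: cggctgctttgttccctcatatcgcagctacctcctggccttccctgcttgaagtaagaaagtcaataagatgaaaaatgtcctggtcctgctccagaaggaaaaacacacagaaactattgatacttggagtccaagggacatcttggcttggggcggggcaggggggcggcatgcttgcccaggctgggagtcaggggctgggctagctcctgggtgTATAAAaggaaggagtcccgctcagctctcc
Cblif, chr19:11747309-11747558, plus strand: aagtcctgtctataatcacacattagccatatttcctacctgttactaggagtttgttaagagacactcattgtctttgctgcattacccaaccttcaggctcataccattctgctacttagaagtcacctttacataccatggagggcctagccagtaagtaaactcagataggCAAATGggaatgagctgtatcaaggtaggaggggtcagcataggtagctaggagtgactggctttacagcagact
Chia1, chr3:106113132-106113381, plus strand: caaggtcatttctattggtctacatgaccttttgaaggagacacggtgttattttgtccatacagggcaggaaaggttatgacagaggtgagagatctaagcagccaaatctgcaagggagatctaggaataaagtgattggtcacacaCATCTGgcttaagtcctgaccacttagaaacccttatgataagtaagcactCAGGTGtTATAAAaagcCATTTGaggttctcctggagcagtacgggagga
The Chia1 window held 3 E-boxes, with first bases 101, 50 and 33 bases before the start. The Cblif window held 1, at 75 bases before the start, and the Pgc window held 0. CANNTG occurred in 66.2% of the 32851 promoter windows of the same length in the table. CATATG, an E-box that MIST1 is known to bind, is a special case of CANNTG and was in none of the 3 windows, beside 3.46% of all windows. CAGCTG, another special case, was also in none of the 3, beside 13.0% of all. TATAAA lay 31 bases before the start of Pgc and 43 bases before that of Chia1, was not found in the Cblif window, and occurred in 12.4% of all windows. A match is a run of letters and not a shown binding site, and no match says only that these letters are not in this window. Binding was not measured here.

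The wider list of 12 chief cell and chief-linked genes had 11 above the floor, with 1 at least 2-fold higher, 0 at least 2-fold lower and a median of 0.03, which turned to -0.06 with the floor raised to the 75th percentile. Leaving out Pga5, Pgc, Cblif and Chia1, 6 of 7 genes were above 0, beside 45.9% of all genes above the floor. Their median was 0.23, which was the value of Rab3d, a GTPase of secretory granules. Bhlha15 and Tnfrsf19, a receptor found on some chief cells, were above 0 by only 0.04 and 0.03. Rnase1, a secreted ribonuclease that the pancreas also makes in quantity, read 9.61 in MIST1-LSL and 7.46 in control and was 4.43-fold higher. All 12 pancreatic acinar genes were higher on the same array, with a median difference of 4.83, and their part in the value of Rnase1 and the rest of this list was not tested. Elapor1, an endosomal and lysosomal membrane protein linked to MIST1, read 8.05 in MIST1-LSL and 7.06 in control, a difference of 0.99. Rab26, a GTPase of secretory granules linked to MIST1, read 5.08 in MIST1-LSL and 4.38 in control, a difference of 0.70, and passed the floor only through MIST1-LSL. Xbp1, a transcription factor of the secretory pathway, read 7.64 on both arrays. Lipf, gastric lipase, was below the floor on both arrays (2.65 in MIST1-LSL and 2.71 in control).

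The relatives of the pepsinogens differed little. Of 9 aspartic proteases, 8 were above the floor and none of these was 2-fold apart. Below 0 were 7 of 8, beside 9390 of all 17363 genes above the floor, and the median of the 8 was -0.20. Without Pga5, Pgc and Ctse the other 5 had a median of -0.21. Ctsd, the lysosomal cathepsin D, read 9.65 in MIST1-LSL and 9.50 in control, the only one above 0 (0.15). Cym, chymosin, the milk-clotting protease, read 5.79 in MIST1-LSL and 6.00 in control. Napsa, the lung and kidney protease napsin A, differed by -0.52 with its MIST1-LSL level of 4.39 below the floor, and Bace1, beta-secretase, by -0.30.

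Among chitinases and chitinase-like lectins, 5 of 10 were above the floor and none of these was 2-fold apart. Their median was 0.27, and Chia1 and Ctbs, a lysosomal chitobiase, were the 2 below 0. Chil4, a chitinase-like lectin without enzyme activity that closely resembles Chil3, read 11.50 in MIST1-LSL and 11.23 in control, a difference of 0.27. Signal from closely similar transcripts cannot be separated with certainty, so the share of Chil4 is uncertain. Chit1, chitotriosidase, differed by 0.47 and Chid1, a lysosomal member of the family, by 0.63.

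The handling of vitamin B12 beyond intrinsic factor differed little as well. Of 16 genes for B12 carriers, receptors and enzymes, Cblif among them, 14 were above the floor and none of these was 2-fold apart. Below 0 were 10 of the 14, beside 9390 of all 17363 genes above the floor, and the median of the 14 was -0.10. Without Cblif, 13 were above the floor, 9 of these were below 0 and the median was -0.07. Amn (4.37 in MIST1-LSL and 4.79 in control) and Mtr (4.56 in MIST1-LSL and 5.02 in control) passed the floor only through control. Both therefore had to read below 0. Tcn2, the carrier of B12 in blood, differed by -0.01 (6.74 in MIST1-LSL and 6.75 in control). Mmaa, which serves the mitochondrial B12 enzyme, differed by -0.54. Mtrr, which reactivates methionine synthase, differed by 0.50, with its control level of 4.44 below the floor. Cubn, the receptor that takes up intrinsic factor in the ileum, was below the floor on both arrays (3.49 in MIST1-LSL and 3.28 in control). In the scavenger receptor cysteine-rich family of Dmbt1, 10 of 15 genes were above the floor, with 5 above 0, none 2-fold apart and a median of 0.0031. Lgals3bp, a secreted member, differed by 0.52 and Marco, a macrophage receptor, by -0.63.

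**Figure D3:**
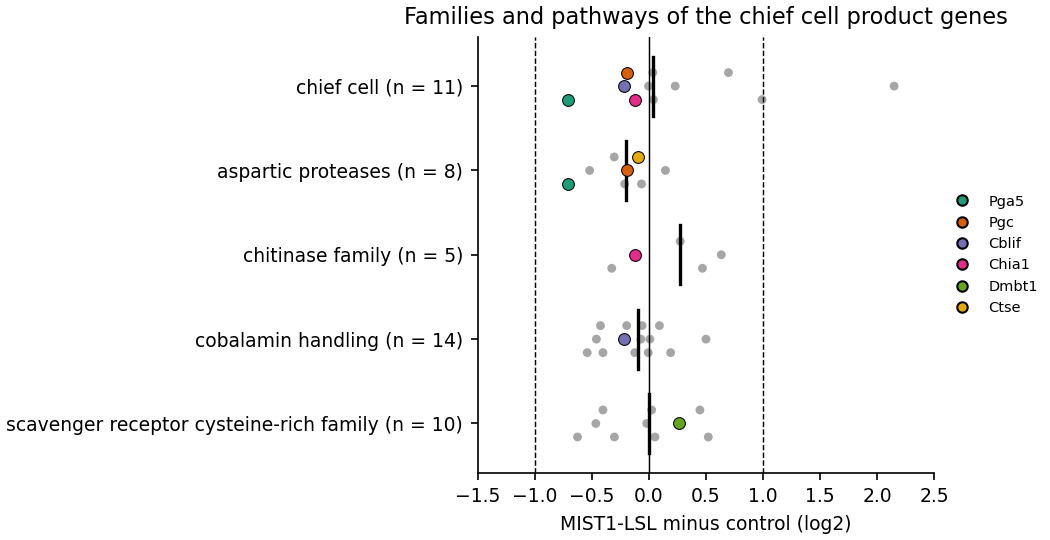
Each point is a gene above the floor, placed by its MIST1-LSL minus control difference (log2), in 5 lists given on the y axis. Coloured points are the 6 genes, grey points the other list genes, black bars the list medians and dashed lines 2-fold differences. The chief cell list is the only one of the 5 with a gene beyond a dashed line, Rnase1 at 2.15.

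The stomachs held other tissue in amounts that can differ, and in tissue RNA fewer cells of a type and less RNA per cell cannot be told apart. Surface pit cell genes mark the mucus-secreting lining. Of all 17363 genes above the floor 9390 were below 0, and so were 8 of 8 pit genes. The pit genes had a median of -0.09 and none was 2-fold apart. Among them the pit mucin Muc5ac differed by -0.74, Krt20, an epithelial keratin, by -0.68 and Gkn1, gastrokine 1, by -0.04. The mucous neck list had a median of -0.05 over 6 genes, with the neck mucin Muc6 at -0.64 and the trefoil factor Tff2 at -0.06. Parietal cell genes had a median of -0.15 over 12 genes, with 9 below 0 and 1 at least 2-fold lower. This was the anion transporter Slc26a7 (4.48, below the floor, in MIST1-LSL and 6.97 in control). Next in size were Aqp4 at -0.77, Kcnj15 at -0.71 and Slc26a9 at -0.55. Aqp4 passed the floor only through control (3.96 in MIST1-LSL and 4.73 in control). The proton pump subunits Atp4a and Atp4b differed by -0.10 and -0.02, and 3 of the 12 parietal genes were above 0. The differences of Pgc, Cblif, Chia1 and Ctse lay inside the range of these lists. That of Pga5 (-0.71) lay between those of Muc6 and Muc5ac and near that of Kcnj15. These 3 lists pooled, 26 genes, had a median of -0.12. Subtracting it, a setting added after the data were seen, left -0.59 for Pga5, -0.08 for Pgc, -0.10 for Cblif, -0.0068 for Chia1, 0.02 for Ctse and 0.38 for Dmbt1.

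Pancreatic acinar and smooth muscle genes had median differences larger in size than that of any of the 6 genes, whereas the other tissue lists did not. All 12 pancreatic acinar genes were at least 2-fold higher in MIST1-LSL, with a median of 4.83. Pnlip, pancreatic lipase, read 10.55 in MIST1-LSL and 2.70, below the floor, in control. Of 10 smooth muscle genes 8 were at least 2-fold higher, and all 10 were above 0, with a median of 1.23. Forestomach squamous genes had a median of 0.20 over 10 and none 2-fold apart. Small intestinal genes had a median of -0.07 over 8, with Alpi, intestinal alkaline phosphatase, at 1.04. The 5 antral genes had a median of -0.21, which turned to 0.11 with the floor raised to the 75th percentile. Gast, the gastrin gene, differed by -0.25 and Bpifb1, which codes for a secreted protein of the epithelium, by 1.51. The metaplasia list had a median of -0.03 over 5 genes, with Wfdc2, a marker of metaplastic glands, at 1.06. The acinar genes ranged from 7.26 to 10.91 in MIST1-LSL and from 2.70 to 6.99 in control, and 0 of 12 lay below the floor in MIST1-LSL against 6 of 12 in control. The part of these tissue differences in the values of the 6 genes was not tested.

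**Figure D4:**
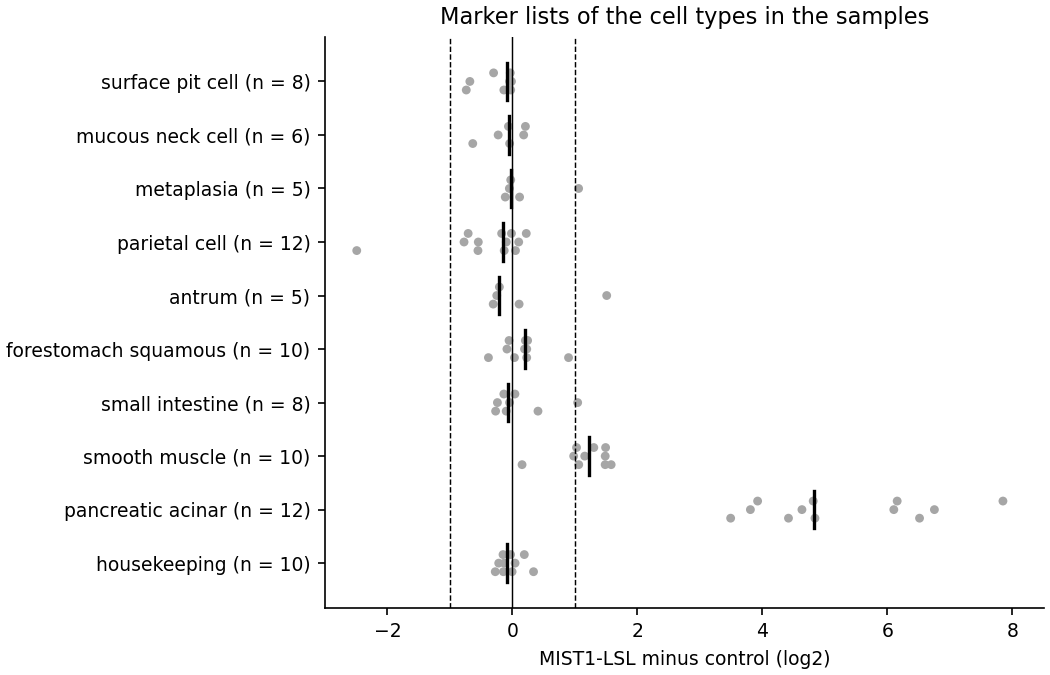
Each point is a gene above the floor, placed by its MIST1-LSL minus control difference (log2), in 10 marker lists given on the y axis, with black bars for list medians and dashed lines for 2-fold differences. The pancreatic acinar median is 4.83 and the smooth muscle median 1.23, while the pit, neck and parietal medians lie between -0.15 and -0.05.

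The direction of each of the 6 differences was the same under 9 other processing settings, and only that of Ctse turned in the setting relative to gastric epithelial genes given above. Over the 9 settings, Pga5 ran from -0.71 to -0.66, Pgc from -0.22 to -0.15, Cblif from -0.23 to -0.18, Chia1 from -0.13 to -0.08, Ctse from -0.11 to -0.06 and Dmbt1 from 0.27 to 0.31. Each gene has 1 probe set, so the settings that treat several probe sets of a gene differently could not change its value. Nor could the floor settings or the rule of at least 10 probes. Only centring, quantile normalization, loess and, by rounding, the workbook values could change a difference.

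**Figure D5:**
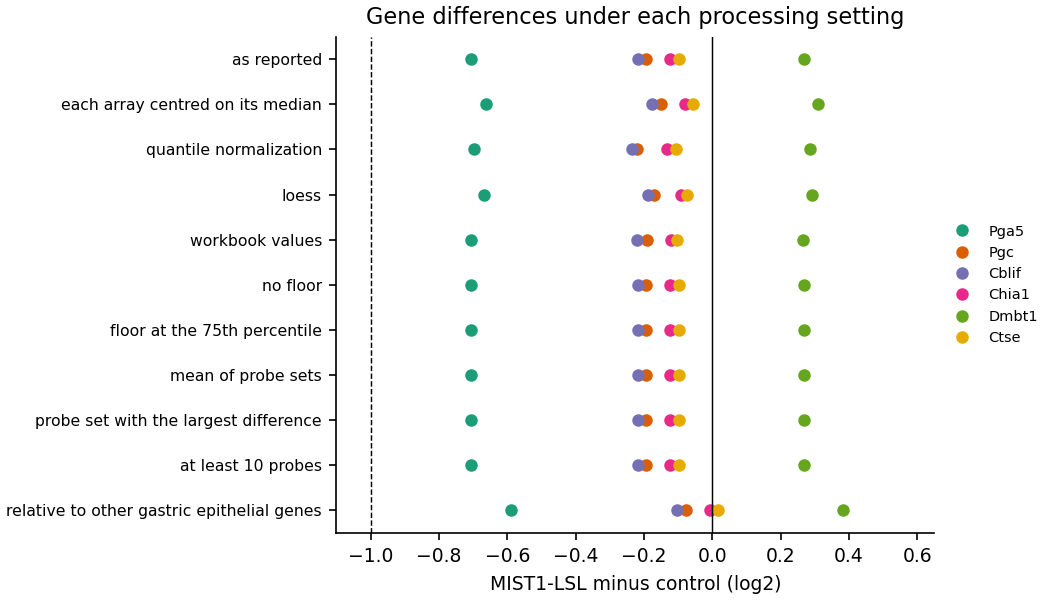
Points give the MIST1-LSL minus control difference (log2) of the 6 genes on the x axis under each setting on the y axis, and the dashed line marks a 2-fold lower level. Pga5 lies between -0.71 and -0.66 except relative to other gastric epithelial genes, the setting added after the data were seen, where it is at -0.59.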

How the data were processed

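Per the labels' protocols, total RNA of 1 stomach per genotype was amplified, labelled with biotin and put on an Affymetrix array. Amplification can change relative transcript levels. Arrays were processed with RMA and Partek, per the submitters' processing notes; for versions and genome build the sources used here give nothing. The deposited series table and the authors' workbook hold log2 levels for 41345 probe sets that differ by at most 0.005, from rounding. The deposited workbook also gives linear intensity, and the authors' ratio of intensities (MIST1-LSL over control).

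Gene names came from the workbook, whose assignment column is cut short, and were updated through RefSeq (GRCm38.p6): transcript accessions named 21749 probe sets, gene identifiers 2575 and symbols 4275, while 3872 kept the file's name and 8874 had none. The probe set with the highest mean represented a gene, no rescaling was applied, and genes were counted as apart from a log2 difference of 1. The floor is no detection call, and scanner files were not analysed here. Named list genes were up to 4 with the largest difference per list and a few fixed ones; Xbp1, Lipf, Cubn, Rab3d, Tnfrsf19, Chil3, Chil5 and Vps37c were named with their values known. The 6 genes, the lists and the settings were chosen with earlier results of these data known. The procedure was tested on simulated data. The number of arrays limits the precision. Python 3.11.15, numpy 2.4.6, pandas 2.3.3 and statsmodels 0.14.6 were used.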

Additional observations from a re-analysis of the deposited data

How the results depend on the processing

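Alternatives were centring each array on its median, quantile normalization, loess, values from the workbook, dropping the floor, raising it to the 75th percentile, taking the mean over a gene's probe sets, taking its most different probe set, requiring at least 10 probes, and size rules of 1.5-fold and 3-fold. The size rules do not enter a difference. Under the other 9 the 6 differences kept their direction, but only centring, quantile normalization, loess and, by rounding, the workbook values could change them. The Pga5 difference minus the Pgc difference, recomputed under the 7 that leave the floor rule as it was, ran from -0.52 to -0.48. The count of 6 genes at least 2-fold apart stayed at 0, except that the 1.5-fold rule counted 1 (Pga5). Of all genes, 249 were 2-fold apart, which became 554 without a floor, 1187 with the 1.5-fold rule and 91 with the 3-fold rule, as these rules admit more or fewer genes by construction. Of 144 list medians recomputed in this way, 2 moved by more than the SD between probe sets of a gene, both with the higher floor: the scavenger receptor list to 0.39 and the antral list to 0.11. Elapor1 passed 2-fold with centring, quantile normalization and loess, so the chief cell list then counted 2. Relative to other gastric epithelial genes, a setting chosen after seeing the data, Ctse turned from -0.10 to 0.02, and 222 genes were 2-fold higher and 60 lower, against 168 and 81. No paired analysis was possible because each genotype had 1 array. Precision is limited by the 1 array per genotype, and no interval between mice can be given.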

Other observations

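The protein-coding genes that flank each of the 6 genes in RefSeq (GRCm38.p6) gave 12 neighbours, of which 5 lay above the floor. None of these 5 was 2-fold apart, and their log2 differences ran from -0.58 to 0.24. These neighbours were chosen by position after the data were seen. Chia1 lies between Chil5 and Chil3, which both read below the floor on both arrays. Chil3, a lectin of macrophages, had 4.38 in MIST1-LSL and 3.37 in control, and Chil5 had 3.84 in MIST1-LSL and 3.58 in control. Pga5 is followed by Vps37c, a component of the endosomal sorting machinery, at 5.01 in MIST1-LSL and 5.59 in control.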
